A study of Homo sapiens with 72 samples.

Results

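LIN28A is an RNA-binding protein that is silent in most adult tissues and is switched on again in several tumours. The experiment described here asked what LIN28A did to miRNAs when TUT4 and TUT7 were lost, in 16 small RNA libraries of the 72 libraries of the series. They were chosen by their labels: the TUT4/7 mutants of DU145, a human prostate cancer cell line without LIN28A, with LIN28A overexpression (LIN28A-OE) and without it. 2 mutant clones were used, mutant_1 and mutant_2, and each gave 4 libraries with and 4 without LIN28A-OE. In both clones, with or without LIN28A-OE, the TUT4 gene had been cut by CRISPR in exon 12 and the TUT7 gene in exon 14. Wild-type DU145 libraries, 4 with LIN28A-OE and 4 without, served for comparison only.

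The LIN28A-OE lines carried a LIN28A cDNA behind a viral promoter, delivered by lentivirus and selected with puromycin, and no empty-vector line was among the libraries. The LIN28A-OE libraries came from passages 1 to 4, the libraries of mutant_1 without LIN28A from passages 9 to 12 and those of mutant_2 from passages 8 to 11. LIN28A, the transduction, the drug and the passage number can therefore not be told apart within a clone. As the LIN28A-OE lines were made from the DU145 lines, the passages with and without LIN28A-OE need not be counted from the same start. The replicates were successive passages of a line, so the p-values measure the spread between passages. The labels give mutant_1 a single clone number, while for mutant_2 the last part of the clone number changes with the replicate.

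As background, let-7 miRNAs are made in steps. A long transcript is cut to a hairpin, the precursor, which has a stem and a loop, and DICER1 then removes the loop to leave mature miRNAs from the 5′ arm (5p) and the 3′ arm (3p). LIN28A binds the loop of let-7 precursors, with its zinc knuckles at a GGAG motif and its cold-shock domain (CSD) at a GAU-like motif nearer the 5′ side. It both blocks DICER1 and brings in the uridylyl transferases TUT4 and TUT7, which add an oligo(U) tail to the precursor that marks it for decay by the exonuclease DIS3L2. Without LIN28A, TUT4 and TUT7 add single uridines to precursors and to mature miRNAs. Mature let-7 represses growth-promoting mRNAs such as those of the RAS and HMGA2 genes.

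The 9 mature let-7 5p miRNAs detected here are given here because the results turn on differences within a family that shares 1 seed. They are RefSeq sequences, written 5′ to 3′, with the seed (bases 2 to 8) in capitals. Counted against let-7a-5p, let-7c-5p, let-7e-5p and let-7f-5p differ from it at 1 of 22 positions, let-7b-5p, let-7d-5p, let-7g-5p and miR-98-5p at 2, and let-7i-5p at 4, so reads with a sequencing error could pass between the closest members.
let-7a-5p: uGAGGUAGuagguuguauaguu
let-7b-5p: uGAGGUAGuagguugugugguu
let-7c-5p: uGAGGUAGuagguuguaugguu
let-7d-5p: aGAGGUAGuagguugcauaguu
let-7e-5p: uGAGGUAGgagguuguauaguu
let-7f-5p: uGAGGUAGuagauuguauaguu
let-7g-5p: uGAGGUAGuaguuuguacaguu
let-7i-5p: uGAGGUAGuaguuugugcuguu
miR-98-5p: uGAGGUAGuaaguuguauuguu

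The stretches between the 5p and 3p miRNA of a precursor are where LIN28A binds, and they set the family members apart. For 10 loci they are read from the RefSeq hairpins (GRCh38.p14), with GGAG in capitals and, where it lies upstream of the last 8 bases, GAU in capitals.
let-7a-1: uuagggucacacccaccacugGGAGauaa
let-7a-2: uagaauuacaucaagGGAGauaa
let-7a-3: uggggcucugcccugcuaugggauaa
let-7b: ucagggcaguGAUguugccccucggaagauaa
let-7c: uagaguuacacccugGGAGuuaa
let-7d: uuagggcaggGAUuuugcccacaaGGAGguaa
let-7e: gaGGAGgacacccaaGGAGauca
let-7f-1: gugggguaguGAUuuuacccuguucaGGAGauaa
let-7g: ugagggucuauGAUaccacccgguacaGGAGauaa
let-7i: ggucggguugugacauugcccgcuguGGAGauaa

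By these letters, GGAG was in the stretch of let-7a-1, let-7a-2, let-7c, let-7d, let-7e, let-7f-1, let-7g and let-7i, and GAU in that of let-7b, let-7d, let-7f-1 and let-7g. Of 738 human hairpins with both arms in RefSeq, 60 (8.13%) held GGAG and 74 (10.0%) held GAU in the same search, on the RNA strand only. let-7f-2 is named only. The shortest of the stretches printed, of 23 bases, belong to let-7a-2, let-7c and let-7e, and the longest, of 35 bases, to let-7g. let-7a-5p can come from 3 loci and let-7f-5p from 2, whereas let-7d, let-7e, let-7g and let-7i each have 1.

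Each small RNA library of the mutants held 6214144 to 14067165 miRNA reads, and replicates of a group correlated at 0.980 to 0.996 (Pearson's r of log levels across miRNAs, which are not independent replicates). The library LIN28A-OE mutant_1 replicate 1 stood apart: miR-21-5p took 37.6% of its reads against 49.4 to 58.0% in the other 15, so results that rest on it are given without it where that matters. Levels are CPM, read counts scaled to library size with TMM factors, and a miRNA is called changed at a Benjamini-Hochberg adjusted p under 0.01 in edgeR's quasi-likelihood test. Markers of blood cells summed to at most 3.60 CPM (5 markers, 0 called) and of fibroblasts to 15.2 to 54.7 CPM (4 markers, of which miR-143-3p was called). Those of pluripotent cells summed to at most 13.3 CPM (4 markers, of which miR-302b-3p was called). The 6 epithelial markers, chosen to fit a carcinoma line, summed to 2349 to 11153 CPM, mostly from miR-200c-3p and miR-200b-3p. Of these 6, miR-205-5p was at 0.718 CPM or less, with no reads in 7 of the 16 libraries, and miR-203a-3p at 13.1 to 44.5 CPM.

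LIN28A mRNA was measured in matched poly(A) libraries and checks the labels. It was at 325 to 406 CPM in the 4 LIN28A-OE mutant_1 libraries and at 229 to 320 CPM in the 4 of LIN28A-OE mutant_2, against 0 to 0.321 CPM in the 8 without LIN28A-OE (exact permutation test within clones, p = 0.00041, the smallest it can give; adjusted over 9 tests, p = 0.00184). LIN28A-OE wild-type cells had less, 64.8 to 74.7 CPM, so the mutants expressed 5.45 and 3.76 times as much LIN28A mRNA as the wild-type line they are compared with. LIN28B, the paralogue with the same targets, was at 0.304 CPM or less in every group.

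The TUT4 and TUT7 genes were still transcribed in the mutants. TUT4 mRNA was at 5.003 to 15.5 CPM in mutant_1 and 15.9 to 24.4 CPM in its LIN28A-OE line, and at 27.3 to 49.8 CPM in mutant_2 and 58.6 to 65.0 CPM in its LIN28A-OE line. The groups did not overlap in either clone (exact permutation test, p = 0.00041, adjusted p = 0.00184). TUT7 mRNA was 10.6 CPM higher with LIN28A-OE over both clones (exact permutation test, p = 0.00082, adjusted p = 0.00245), with ranges that overlapped in mutant_1, 7.51 to 21.3 CPM against 20.7 to 27.5 CPM. mRNA levels do not show whether protein was made. The study's western blots showed both proteins depleted in independent DU145 double mutants, and its text describes no such blot of their LIN28A-OE lines.

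With LIN28A-OE, let-7 levels fell in both mutants, but for most members by far less than in wild-type cells. Of the 9 let-7 5p miRNAs, 6 fell in mutant_1 and 5 in mutant_2, the same 5 in both (let-7d, let-7e, let-7f, let-7i and miR-98), and none rose. Over all 815 miRNAs tested, 3.44% fell in mutant_1, 6.63% in mutant_2 and 2.09% in both. In wild-type cells 8 of the 9 fell, beside 5.7% of 842 miRNAs. The median log2 fold change of the 9 was −0.54 in mutant_1, −0.66 in mutant_2 and −3.29 in wild type, while that of all miRNAs was 0.05, −0.04 and 0.05. With libraries scaled by their totals alone, the family miRNAs of both arms that fell went from 10 to 6 of 19 in mutant_1 and from 9 to 5 in mutant_2, against 17 of 19 in wild type.

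**Figure D1:**
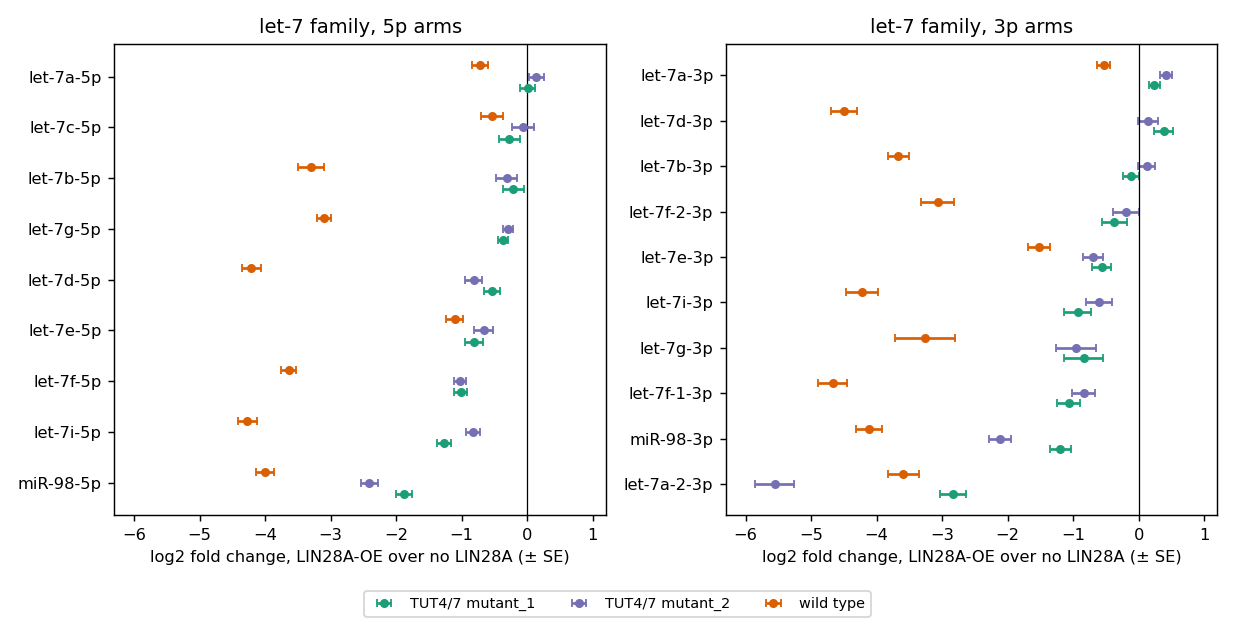
Log2 fold change of each let-7 family miRNA, LIN28A-OE over no LIN28A (x axis, edgeR estimate ± SE, 4 libraries a group), for 5p arms (left) and 3p arms (right) in TUT4/7 mutant_1, mutant_2 and wild type. Wild-type points sit between −0.54 and −4.67, most mutant points between −1.27 and 0.41, with miR-98 and let-7a-2-3p lower.

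let-7i-5p shows the main pattern. In mutant_1 it was at 8228, 8131, 7477 and 8459 CPM without LIN28A and at 2768, 3658, 3614 and 3386 CPM with it. In mutant_2 it was at 11160, 9638, 10880 and 11080 CPM without and at 5237, 6120, 6846 and 5933 CPM with LIN28A-OE. The groups did not overlap in either clone, and the fall was 2.41-fold in mutant_1 (log2 −1.27 ± 0.10 SE, edgeR adjusted p = 6.20e-08) and 1.77-fold in mutant_2 (−0.82 ± 0.10, adjusted p = 1.87e-05). In wild-type cells it went from 12530, 14190, 14440 and 12820 CPM to 486, 836, 790 and 685 CPM, a 19.3-fold fall.

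let-7f-5p, in mutant_1 the most abundant of the members that fell, moved alike in both clones. It was at 15820, 17100, 16150 and 17210 CPM in mutant_1 and at 7724, 7111, 8577 and 9347 CPM with LIN28A-OE, a 2.02-fold fall (adjusted p = 3.50e-07). In mutant_2 it went from 9702, 10910, 10330 and 10690 CPM to 4746, 4743, 5671 and 5319 CPM, a 2.03-fold fall (adjusted p = 3.25e-07). No library overlapped between the groups of a clone, and the difference of the effect between clones was 0.00 ± 0.13 (SE) on the log2 scale. In wild-type cells the fall was 12.46-fold.

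miR-98-5p fell the most of the 5p arms in the mutants. It was at 1054, 1059, 1008 and 1251 CPM in mutant_1 and at 241, 283, 312 and 355 CPM with LIN28A-OE (3.67-fold, adjusted p = 3.31e-09). In mutant_2 it went from 615, 611, 598 and 625 CPM to 103, 107, 137 and 114 CPM (5.31-fold, adjusted p = 9.80e-11). The fall in wild-type cells was 15.9-fold, and the difference between mutants and wild type was 1.85 ± 0.15 on the log2 scale (adjusted p = 2.80e-10).

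let-7d-5p and let-7e-5p fell by smaller amounts. let-7d-5p was lower by 1.45-fold in mutant_1 (adjusted p = 0.00777) and 1.76-fold in mutant_2 (adjusted p = 0.000157), against 18.5-fold in wild type. Its call in mutant_1 was lost in 15 of 25 alternatives, among them leaving out any 1 mutant_1 library other than LIN28A-OE replicate 1, LIN28A-OE mutant_2 replicate 4, or mutant_2 replicate 3 or 4. let-7e-5p was lower by 1.76-fold and 1.58-fold, close to its 2.15-fold fall in wild type, and its difference from wild type was not called (0.37 ± 0.16, adjusted p = 0.17).

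let-7g-5p stayed within a narrow range in the mutants. It was at 10070 to 10530 CPM in mutant_1 and 7277 to 8479 CPM with LIN28A-OE, and at 8456 to 8819 CPM in mutant_2 and 6535 to 7750 CPM with LIN28A-OE. The groups did not overlap, but the folds were only 1.30 (adjusted p = 0.0038) and 1.23 (adjusted p = 0.012, not called), and the call in mutant_1 was lost without any 1 of the 4 mutant_1 libraries or without LIN28A-OE mutant_1 replicate 4. In wild-type cells it went from 10190 to 11230 CPM down to 935 to 1455 CPM, an 8.59-fold fall.

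The remaining 5p arms were not called in either mutant. let-7a-5p, the most abundant member, was at 20890 to 23820 CPM in mutant_1 and 17000 to 24610 CPM with LIN28A-OE, and at 12960 to 16010 CPM in mutant_2 and 13140 to 17670 CPM with LIN28A-OE. Its log2 differences were 0.01 ± 0.12 and 0.14 ± 0.12 (SE), against −0.72 ± 0.12 in wild type. let-7b-5p had −0.21 ± 0.16 and −0.31 ± 0.16 against −3.29 ± 0.20, and let-7c-5p, at under 30 CPM in all 24 libraries, −0.27 ± 0.16 and −0.07 ± 0.17 against −0.54 ± 0.17 (adjusted p = 0.026).

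**Figure D2:**
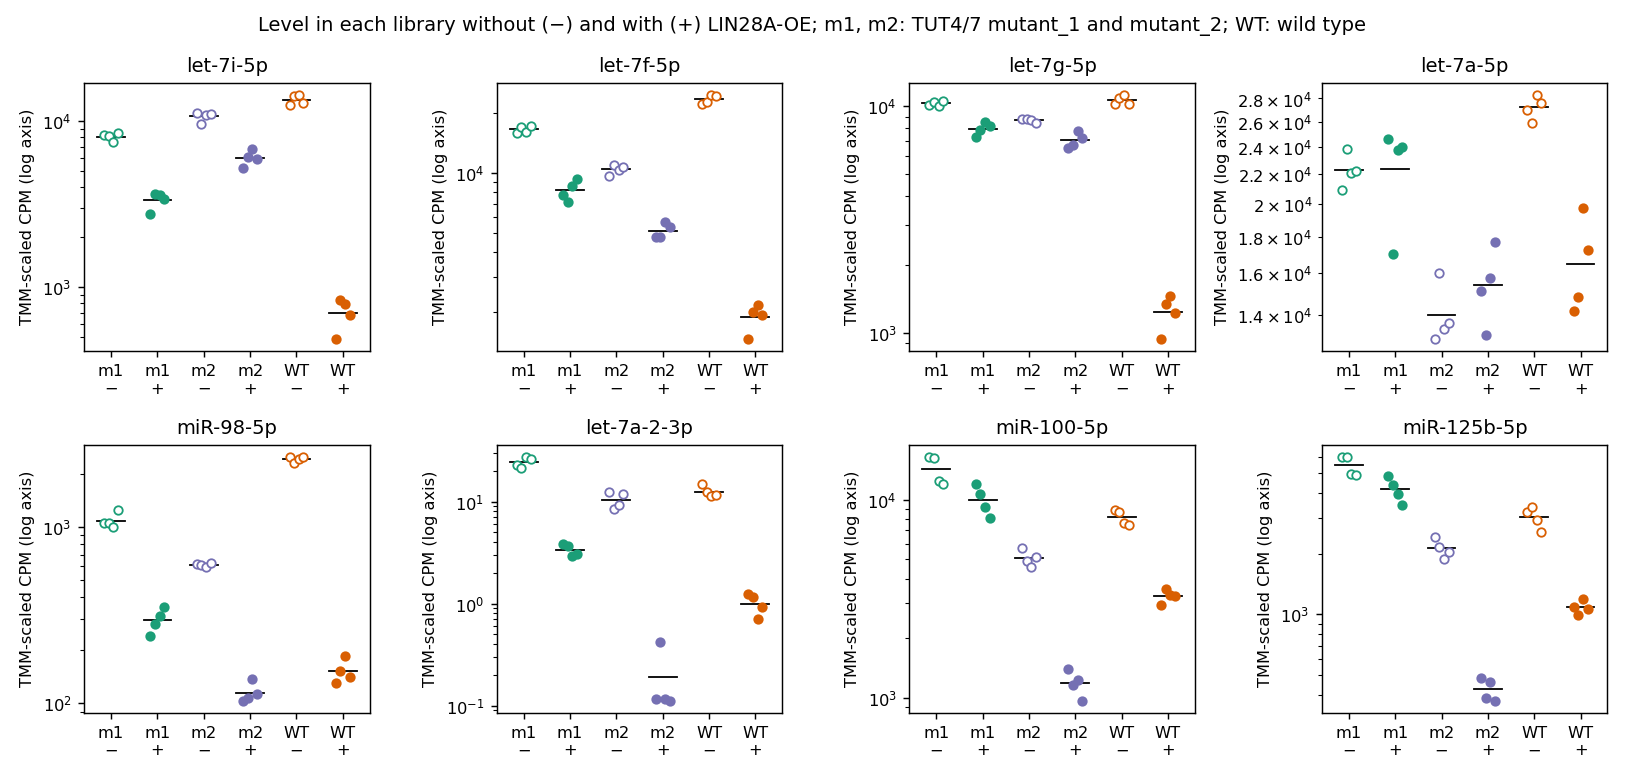
Level of 8 miRNAs in each library (y axis, TMM-scaled CPM, log axis with its own range in each panel) without (open) and with (filled) LIN28A-OE, in TUT4/7 mutant_1 (m1), mutant_2 (m2) and wild type (WT), with the group mean as a line. let-7i-5p, let-7f-5p and let-7g-5p stay at 2768 CPM or more in LIN28A-OE mutants, whereas miR-98-5p, let-7a-2-3p and the mutant_2 levels of miR-100-5p and miR-125b-5p drop further.

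The difference between the mutants' mean effect and the wild-type effect was tested directly in a fit of 24 libraries. It was called for 7 of 9 let-7 5p arms, all with a smaller fall in the mutants, beside 3.09% of 842 miRNAs with a higher and 2.14% with a lower effect in the mutants. It was largest for let-7d-5p (3.53 ± 0.17 on the log2 scale) and let-7i-5p (3.23 ± 0.16), followed by let-7b-5p (3.03 ± 0.23) and let-7g-5p (2.77 ± 0.13), and smallest among the 7 for let-7a-5p (0.80 ± 0.14). let-7c-5p and let-7e-5p were not called. The higher LIN28A mRNA level of the mutants stands beside these differences, as does the wider gap in passage number in wild type. The part of either was not tested.

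The members are also described by the CSD-binding class of their precursor, and the classes were not tested against each other. Of 5 miRNAs of the class whose precursors the CSD binds (let-7b, let-7d, let-7g, let-7i and miR-98), 4 fell in mutant_1, 3 in mutant_2 and 5 in wild type, with medians of −0.54, −0.82 and −3.99. Of 3 of the class it does not bind (let-7a, let-7c and let-7e), 1 fell in mutant_1, 1 in mutant_2 (let-7e in both) and 2 in wild type, with medians of −0.27, −0.07 and −0.72. Over all miRNAs, 3.44% fell in mutant_1, 6.63% in mutant_2 and 5.7% in wild type, with medians of 0.05, −0.04 and 0.05. let-7f-5p comes from loci of both classes. In mutant_2 the members ranged from let-7a-5p at 0.14 to miR-98-5p at −2.41 on the log2 scale.

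3p arms are made from the same precursors and carry seeds of their own, so they separate loci that share a 5p miRNA. Of 10 let-7 3p miRNAs tested, 4 fell in mutant_1, 4 fell and 1 rose in mutant_2, and 10 fell in wild type. Over all miRNAs, 3.44% fell in mutant_1, 6.63% fell and 4.79% rose in mutant_2, and 5.7% fell in wild type. let-7a-2-3p, let-7f-1-3p and miR-98-3p fell in both mutants, beside 2.09% of all miRNAs. let-7f-1-3p was lower by 2.09-fold and 1.79-fold against 25.5-fold in wild type, with the call in mutant_2 lost without LIN28A-OE mutant_2 replicate 1 or 4 or mutant_2 replicate 3, and miR-98-3p by 2.30-fold and 4.34-fold against 17.3-fold. let-7b-3p (−0.12 ± 0.12 and 0.12 ± 0.12) and let-7d-3p (0.38 ± 0.15 and 0.14 ± 0.15) were not called in the mutants, although they fell by 3.67 and 4.50 on the log2 scale in wild type, and let-7d-3p had the largest difference between mutants and wild type of the 19 family members tested (4.76 ± 0.22). let-7c-3p was not tested for lack of reads.

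For some loci the arms did not move alike. let-7d-5p fell in both mutants while its 3p arm did not, whereas for miR-98 both arms fell. let-7a-3p, which comes from let-7a-1 and let-7a-3, was at 150 to 173 CPM in mutant_2 and 211 to 216 CPM with LIN28A-OE, a log2 rise of 0.41 ± 0.09 (adjusted p = 0.0032), beside 4.79% of all miRNAs that rose there. In mutant_1 it was at 184 to 215 CPM against 221 to 257 CPM (0.24 ± 0.09, adjusted p = 0.089). The call in mutant_2 was lost without LIN28A-OE mutant_2 replicate 1 or 4 or mutant_2 replicate 4.

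let-7a-2-3p is the exception in the family. This arm is made only from let-7a-2, a locus of the class without CSD binding at chr11:122146522-122146593 (minus strand, GRCh38.p14), and its sequence is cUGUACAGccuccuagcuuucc, with the seed in capitals. It was at 22.7, 21.6, 27.5 and 26.04 CPM in mutant_1 and at 3.83, 3.69, 2.95 and 3.03 CPM with LIN28A-OE. In mutant_2 it was at 12.3, 8.41, 9.20 and 11.8 CPM, and with LIN28A-OE at 0.117, 0.422, 0.115 and 0.110 CPM, which are 1 to 5 reads per library. The log2 changes were −2.84 ± 0.20 (adjusted p = 6.24e-09) and −5.56 ± 0.30 (adjusted p = 9.80e-11), against −3.59 ± 0.23 in wild type. From summed reads, 376 without and 8 with LIN28A-OE, the fall in mutant_2 was 50.2-fold with an exact 95% interval of 25.2 to 117, which covers counting error only. In mutant_1 it was 7.03-fold (5.84 to 8.52) and in wild type 12.1-fold (8.68 to 17.2). It was the 1 of 10 let-7 3p miRNAs whose effect in the mutants was not called different from wild type (−0.60 ± 0.31, adjusted p = 0.25), and the only family member whose effect differed between the clones (−2.72 ± 0.40, adjusted p = 0.00033), beside 1.6% of all miRNAs.

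The neighbours of let-7a-2 moved in the same direction. let-7a-2 lies between miR-100, 5.64 kb away, and miR-125b-1, 46.7 kb away, and the group is known to be carried by a common long transcript. miR-100-5p, a repressor of mTOR, and miR-125b-5p, a repressor of p53, are shown for their seeds, which differ from that of let-7 and from each other.
miR-100-5p: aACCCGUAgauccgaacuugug
miR-125b-5p: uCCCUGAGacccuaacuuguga

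miR-100-5p was at 16430, 16250, 12430 and 11960 CPM in mutant_1 and at 12020, 10640, 9154 and 8027 CPM with LIN28A-OE, groups that overlapped (−0.52 ± 0.14, adjusted p = 0.016). In mutant_2 it went from 5714, 4913, 4557 and 5147 CPM to 1404, 1166, 1228 and 964 CPM, a 4.26-fold fall (adjusted p = 3.82e-09). miR-125b-5p, which can also come from a second locus, changed by −0.39 ± 0.12 in mutant_1 (adjusted p = 0.036) and fell 4.96-fold in mutant_2 (adjusted p = 9.80e-11). miR-100-5p, miR-100-3p and miR-125b-1-3p each come from 1 locus, and of these 3 the 3p arms fell in both clones, miR-100-3p by 1.64 and 3.55 and miR-125b-1-3p by 0.89 and 2.87 on the log2 scale. The call of miR-100-3p in mutant_1 was lost without LIN28A-OE mutant_1 replicate 4 or any 1 of the 4 mutant_1 libraries. None of the 4 differed between mutants and wild type, where they fell by 1.32 to 2.03 on the log2 scale. The effect was called stronger in mutant_2 for 3 of the 4, by 1.57 (miR-100-5p), 1.92 (miR-125b-5p) and 1.98 (miR-125b-1-3p) log2 units. miR-100-3p also fell further in mutant_2, but its difference between clones was not called. The locus was chosen after its values were seen.

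The partners of let-7e went the other way. miR-99b-5p and miR-125a-5p, transcribed with let-7e on chromosome 19, rose in mutant_2 by 0.54 ± 0.10 (adjusted p = 0.00092) and 0.60 ± 0.14 (adjusted p = 0.0043). In mutant_1 the differences were 0.40 ± 0.10 and 0.50 ± 0.14 (adjusted p = 0.011 and 0.018), in the same direction and not called. The call of miR-125a-5p was lost in 10 of 25 alternatives. let-7e-5p fell in both clones, so in mutant_2 mature miRNAs of this cluster were called in opposite directions. Over the list of 9 tested let-7 cluster partners, 1 rose and 2 fell in mutant_1, beside 3.19% and 3.44% of all miRNAs, and 2 rose and 5 fell in mutant_2, beside 4.79% and 6.63%. The list holds the neighbours of let-7a-2.

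As a share of all miRNA reads, the let-7 family was 5.18% ± 0.27 (SD, n = 4) in mutant_1 and 4.37% ± 1.41 with LIN28A-OE, and 5.67% ± 0.56 in mutant_2 and 4.62% ± 0.59 with LIN28A-OE. The difference over both clones was −0.93 percentage points (exact permutation test within clones, two-sided p = 0.037, adjusted over 9 tests p = 0.067). LIN28A-OE mutant_1 replicate 1 was at 6.26%. Without it the difference in mutant_1 was −1.43 points (exact p = 0.029) instead of −0.81 (p = 0.34). Leaving out each library in turn gave −1.43 to −0.338 points in mutant_1 (exact p = 0.029 to 0.63). In wild-type cells the share was 7.79% ± 0.48 without and 1.93% ± 0.20 with LIN28A-OE. The wild-type share before LIN28A-OE was thus also higher than in either mutant.

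Across all miRNAs, calls in both directions were made in each clone. In mutant_1, 26 miRNAs rose (3.19%) and 28 fell, and in mutant_2, 39 rose (4.79%) and 54 fell, a split that became 51 and 47 with DESeq2's size factors. On the mean of both clones 69 rose (8.47%) and 72 fell (8.83%), or 61 and 36 when libraries were scaled by their totals alone, which moved the median log2 fold change of all miRNAs in mutant_1 from 0.05 to 0.24. 8 miRNAs (0.982%) rose and 17 (2.09%) fell in both clones. let-7 family members made up 8 of these 17, and miR-100-3p and miR-125b-1-3p are neighbours of let-7a-2.

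**Figure D3:**
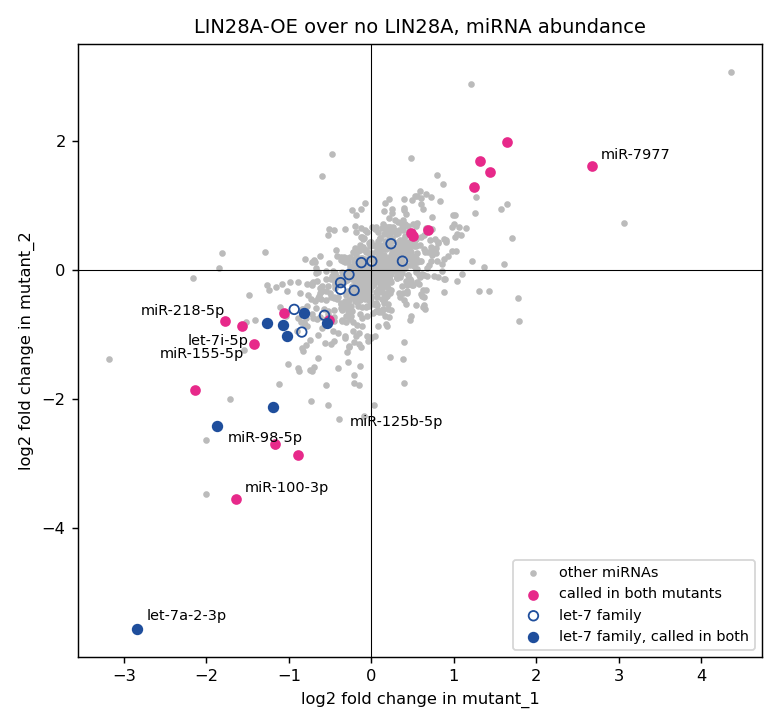
Log2 fold change of 815 miRNAs, LIN28A-OE over no LIN28A, in mutant_1 (x axis) against mutant_2 (y axis). The 25 miRNAs called in the same direction in both clones are coloured, and let-7 family members are blue, filled where called in both. The 8 filled let-7 points lie in the lower left, with let-7a-2-3p farthest out.

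Among the others that fell in both clones, miR-155-5p, a regulator of inflammatory signalling, was at 619 to 705 CPM in mutant_1 and 207 to 309 CPM with LIN28A-OE, and at 330 to 407 CPM in mutant_2 and 136 to 196 CPM with LIN28A-OE. The falls of 2.68-fold and 2.21-fold were smaller than the 5.30-fold fall in wild type (difference 1.12 ± 0.21, adjusted p = 0.00059). miR-218-5p, made from introns of the SLIT genes, was at 31.9 to 41.3 CPM against 10.2 to 13.3 CPM in mutant_1 and at 34.6 to 47.4 CPM against 19.9 to 23.98 CPM in mutant_2. In wild type the log2 difference was 0.08 ± 0.16 (not called), and the mutants differed from it by −1.30 ± 0.20 (adjusted p = 3.40e-05). Wild-type cells held less of it to begin with, 7.08 to 11.6 CPM. The rest were miR-200a-5p, miR-200b-5p, miR-10a-3p and both arms of miR-3620, the latter at under 5 CPM on average in every group.

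Of the 8 that rose in both clones, miR-7977 rose the most in mutant_1, while in mutant_2 miR-133a-3p and miR-6842-3p rose more (1.98 and 1.69 on the log2 scale). It was at 8.48 to 10.5 CPM in mutant_1 and 45.6 to 84.0 CPM with LIN28A-OE, and at 10.1 to 14.1 CPM in mutant_2 and 31.5 to 39.9 CPM with LIN28A-OE. Its mature sequence in RefSeq, uUCCCAGCcaacgcacca, has only 18 bases. The rises of 2.67 and 1.61 on the log2 scale compare with 0.96 in wild type. The most abundant was miR-30c-5p, at 7621 to 9308 CPM against 10030 to 12420 CPM in mutant_1 and at 3992 to 4409 CPM against 5443 to 6732 CPM in mutant_2 (log2 0.48 ± 0.09 and 0.58 ± 0.09), with 0.03 ± 0.11 in wild type. miR-484, which lies next to a gene start and is made without the usual first cut, rose by 0.51 ± 0.09 and 0.53 ± 0.09. The muscle miRNAs miR-1-3p (1.43 and 1.52) and miR-133a-3p (1.65 and 1.98) rose at low levels, at most 53.1 CPM as a group mean, together with miR-95-3p, miR-2116-3p and miR-6842-3p. In wild type miR-1-3p was at 9.68 to 11.1 CPM without and at 29.0 to 43.4 CPM with LIN28A-OE. There miR-133a-3p, miR-95-3p and miR-6842-3p were also higher with LIN28A-OE, without overlap, whereas the groups overlapped for miR-2116-3p and miR-484. The 8 became 3 without mutant_1 replicate 4, where miR-30c-5p was among those lost in mutant_1, and 13 without LIN28A-OE mutant_1 replicate 2.

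The effect of LIN28A-OE differed between the clones for 13 miRNAs. Apart from the let-7a-2 neighbourhood, the difference was largest for miR-143-3p, which went from 2.56 to 8.96 CPM in mutant_1 and from 2.18 to 1.27 CPM in mutant_2, and for miR-363-3p, which went from 17.1 to 12.3 CPM and from 0.644 to 2.26 CPM. miR-200b-3p, an epithelial miRNA that represses the ZEB factors, was at 1584 to 1928 CPM in mutant_1 and 715 to 767 CPM with LIN28A-OE. In mutant_2 it was at 3957 to 4219 CPM and 3232 to 3420 CPM. It fell 2.37-fold in mutant_1 and had a log2 difference of −0.30 ± 0.08 in mutant_2 (adjusted p = 0.012, not called). The difference between clones was 0.94 ± 0.12 (adjusted p = 4.82e-05), and it turned to −0.11 in the authors' other count table. That table's column for LIN28A-OE mutant_1 replicate 2 correlated best with the file of LIN28A-OE wild-type replicate 2 (0.942, against 0.15 with its own file). In the per-library files miR-200b-3p was at 4048 CPM in that wild-type library and at 767 CPM in LIN28A-OE mutant_1 replicate 2. Over the list of 10 tested miR-200 family miRNAs and partners, 5 fell in mutant_1, beside 3.44% of all miRNAs, and 2 fell and 1 rose in mutant_2, beside 6.63% and 4.79%. The summed level of the 6 epithelial markers, of which 3 were called, was 3534 to 4356 CPM in mutant_1 and 2349 to 2825 CPM with LIN28A-OE, and 8614 to 9711 CPM in mutant_2 and 9852 to 11153 CPM with LIN28A-OE. The part of such a shift in other results was not tested.

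Of 7 tested miRNAs from other precursors that LIN28 is known to bind, 1 rose in mutant_1 (miR-143-3p, by 1.79 on the log2 scale) beside 3.19% of all miRNAs, and 2 rose in mutant_2 (miR-363-3p by 1.80 and miR-200c-3p by 0.59) beside 4.79%. None of the 7 fell or was called in both clones, and their medians were 0.02 and 0.20. In the miR-17-92 group and its paralogues, which promote proliferation, 0 of 18 were called in mutant_1, where 3.19% of all miRNAs rose and 3.44% fell. In mutant_2, 1 rose (miR-363-3p again) and 1 fell, beside 4.79% and 6.63% of all miRNAs. Of 8 miR-181 miRNAs, 6 rose in wild type, beside 6.53% of 842 miRNAs, 1 in mutant_1 (miR-181b-5p), beside 3.19%, and 0 in mutant_2, beside 4.79%. The difference between mutants and wild type was called for 1 of them, miR-181a-5p (−0.90 ± 0.20, adjusted p = 0.0032). Of 9 p53-responsive miRNAs, 1 rose in mutant_1 (miR-34b-3p, beside 3.19%) and none was called in mutant_2, where 8 had a lower value. 2 of the 9 fell on the mean of both clones (miR-34a-3p and miR-215-5p), beside 8.83%, and 2 had a lower effect in the mutants than in wild type, beside 2.14%. In the miR-29 family 0 of 7 were called in each clone. Over all miRNAs, 3.19% rose and 3.44% fell in mutant_1, and 4.79% rose and 6.63% fell in mutant_2.

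Tails were read from the same libraries as bases added to the 3′ end that the genome does not encode. TUT4 and TUT7 are the main source of added U, and in their absence U tails were rare: 0.0893% ± 0.0007 (SD, n = 4) of miRNA reads in mutant_1 and 0.200% ± 0.019 in mutant_2, against 1.87% ± 0.10 in wild type. With LIN28A-OE the share was 0.111% ± 0.026 in mutant_1 and 0.267% ± 0.010 in mutant_2. Over both clones it was higher by 0.0444 percentage points (exact permutation test within clones, p = 0.00204, adjusted p = 0.0092). In mutant_2 the groups did not overlap (0.184 to 0.225% against 0.253 to 0.274%, exact p = 0.029, the smallest possible). In mutant_1 they did (0.0886 to 0.0902% against 0.0876 to 0.147%, exact p = 0.14), and the highest value was that of replicate 1, the library with little miR-21-5p. With miR-21-5p reads left out, the mutant_1 groups did not overlap (0.147 to 0.162% against 0.169 to 0.211%, exact p = 0.029). With every library given the same miRNA composition instead, they overlapped (0.0900 to 0.0925% against 0.0918 to 0.107%, exact p = 0.086). Over both clones the difference was then 0.0317 points (exact p = 0.0012). The residual U share was higher in mutant_2 than in mutant_1, as were its TUT4 and TUT7 mRNA levels, and the LIN28A-OE lines of both clones had more of both mRNAs. The part of those mRNAs in the U share was not tested.

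Added A went the other way. A tails were on 9.44% ± 0.44 of reads in mutant_1 and 8.68% ± 0.74 with LIN28A-OE, and on 9.22% ± 0.43 in mutant_2 and 7.38% ± 0.30 with LIN28A-OE. The difference over both clones was −1.30 percentage points (exact permutation test, p = 0.00204, adjusted p = 0.0092). The mutant_2 groups did not overlap (8.61 to 9.61% against 7.04 to 7.75%), while those of mutant_1 did. With miR-21-5p reads left out, the difference over both clones was −0.569 points (exact p = 0.0086). It was then −0.317 points in mutant_1 (exact p = 0.34) and −0.820 in mutant_2 (exact p = 0.029). A tails of miR-21-5p itself went from 9.73 to 8.72% of its reads in mutant_1 (not called). In mutant_2 they fell from 10.4 to 7.74% (edgeR adjusted p = 0.0027). In wild-type cells the mean shares without and with LIN28A-OE were 1.87% and 1.91% for U and 7.72% and 7.66% for A, which were not tested.

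**Figure D4:**
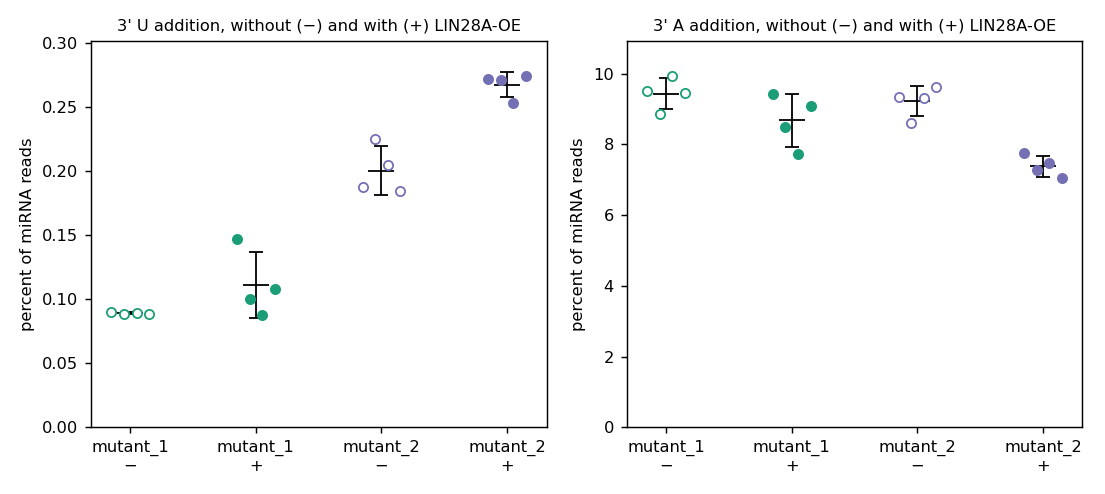
Percent of miRNA reads with a 3′ U addition (left) and a 3′ A addition (right) in each library of the TUT4/7 mutants without (open) and with (filled) LIN28A-OE, with mean ± SD (n = 4) as bars; both y axes start at 0. In mutant_2 all LIN28A-OE libraries lie above the others for U (0.253 to 0.274%) and below them for A (7.04 to 7.75%).

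Per miRNA, tails were tested against the untailed reads of the same miRNA in the same library. For U, 225 miRNAs had enough reads, and 2 rose in mutant_1 (0.889%), 18 rose and 1 fell in mutant_2 (8% and 0.444%), and 6 rose on the mean of both (2.67%). 1 rose in both clones (0.444%). For A, 350 miRNAs were tested, of which 10 were called in mutant_1 (2.86%) and 16 in mutant_2 (4.57%), and 9 rose and 32 fell on the mean (2.57% and 9.14%). 2 rose and 2 fell in both (0.571% each). No difference between clones was called by edgeR, with 13 of 225 and 24 of 350 at an unadjusted p under 0.05.

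miR-27a-3p, a miRNA of the miR-23/24/27 cluster, was the 1 miRNA whose U tails rose in both clones. U was on 0.195, 0.197, 0.217 and 0.262% of its reads in mutant_1 and on 0.308, 0.336, 0.316 and 0.331% with LIN28A-OE, and on 0.939, 1.02, 1.07 and 1.07% in mutant_2 and 1.33, 1.49, 1.39 and 1.41% with LIN28A-OE. Groups did not overlap (adjusted p = 0.00048 and 0.0017), but the call in both was lost without LIN28A-OE mutant_2 replicate 2, mutant_1 replicate 1 or 2, or mutant_2 replicate 1. Its A tails rose as well, from 36.0 to 42.6% in mutant_1 and from 24.7 to 29.1% in mutant_2 (means, adjusted p = 0.0020 and 0.0069). A tails of miR-652-3p rose from 49.7 to 59.9% and from 43.8 to 51.6% (adjusted p = 3.39e-05 and 0.00054). Those of miR-92b-3p fell from 10.6 to 7.31% and from 14.4 to 9.34% (adjusted p = 7.87e-05 and 1.64e-06), and those of miR-425-5p from 7.33 to 5.76% and from 6.76 to 4.62% (adjusted p = 0.010 and 2.32e-05). Neither the level of miR-27a-3p nor that of miR-92b-3p was called changed.

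let-7 itself carried few U tails in the mutants, with or without LIN28A-OE. let-7i-5p, the 5p member with the most, had U on 0.180% of its reads in mutant_1 and 0.209% with LIN28A-OE, and on 0.473% and 0.541% in mutant_2. In wild-type cells it had U on 5.51% without and 6.12% with LIN28A-OE, and let-7b-5p on 1.25% and 1.53%. These members had slightly more U with LIN28A-OE in each line, differences that were not called in the mutants and not tested in wild type. The share pooled over all 5p arms went the other way, and as it weights each member by its reads, it also moves with the members' levels. Pooled, U was on 0.0276% of reads in mutant_1 and 0.0189% with LIN28A-OE, and on 0.117% and 0.101% in mutant_2, where wild-type cells had 1.04% without and 0.263% with LIN28A-OE. Pooled over the 3p arms, whose end is that of the precursor, U was on 0.194% and 0.164% of reads in mutant_1 and on 0.448% and 0.563% in mutant_2, against 13.5% in wild type and 3.33% in LIN28A-OE wild type, a share that also moves with the members' levels. In the mutants these are 5 to 34 tailed reads per library. let-7b-3p had U on 58.2% of its reads in wild type and 54.1% with LIN28A-OE, and let-7f-1-3p on 66.0% and 70.2%, whereas let-7i-3p had 3.97% and 1.28% and the abundant let-7a-3p 0.450% and 0.327%. In the mutants let-7b-3p had U on 0.664% in mutant_1 and 0.517% with LIN28A-OE, and on 1.36% and 1.39% in mutant_2. let-7f-1-3p had it on 0.730% and 1.01% in mutant_1 and on 1.77% and 2.38% in mutant_2. A tails were more frequent: they were on 34.3% and 36.0% of let-7 3p reads in mutant_1 and mutant_2, against 2.73% in wild type, and on 33.7% and 32.6% with LIN28A-OE. No let-7 member was called for U in either clone, and let-7f-5p was the 1 member called for A, lower in mutant_2 (0.0965% against 0.0608% of reads, adjusted p = 0.0027) and on the mean of both clones (adjusted p = 0.0051).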

How the data were processed

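Small RNA libraries were sequenced from 4 serial passages of each line. Per the study's methods, the authors trimmed adaptors and the random bases at both read ends, counted miRNAs with miRDeep2, obtained counts of modifications with Chimira and analysed modification profiles with sRNAbench. The headers of the per-library files match a Chimira modification table but do not name the tool. The deposited per-library files hold read counts per miRNA and modification pattern. These counts were summed per miRNA, and 3′ additions made only of U or only of A were read from the pattern. A deposited table of miRDeep2 counts served as an alternative, and its 56 columns of other samples were not used. The authors counted mRNA reads on hg38 with HTSeq after HISAT2 (2.1.0) and Trimmomatic (0.39), per the submitters' processing notes. From those deposited counts CPM was computed, leaving out the summary lines that name no gene. How the authors' tools divide reads between near-identical let-7 miRNAs was not tested.

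Abundance was tested with edgeR (4.0.16, R 4.3.3): filterByExpr, TMM and quasi-likelihood tests on the 16 mutant libraries, with a term for each clone, the mean and the difference of the clones' effects, and on 24 libraries for the comparison with wild type. CPM values printed use the TMM factors of the 24 libraries. Tails were tested in edgeR with tailed and untailed reads per library as paired counts, for miRNAs with at least 50 reads in every library and at least 20 tailed reads in all. Calls used a Benjamini-Hochberg adjusted p under 0.01. Shares and mRNAs were compared by two-sided exact permutation within clones, where 4 against 4 cannot go below p = 0.029. With simulated counts of 779 miRNAs, the test of mutant_1 recovered 67.7% of changes of 1 log2 unit and 98.9% of changes of 2, and that of mutant_2 60.4% and 97.9%. With depths of 6214144 to 14067165 reads, low miRNAs such as let-7a-2-3p rest on single reads in some libraries. Intervals cover counting error only. 1 of the sequences is not reported here.

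The members and gene lists were chosen with earlier results of these data known. Named were all let-7 miRNAs tested, up to 10 per direction called in both clones, up to 6 per direction for differences and tails, up to 4 of the most abundant members of each list, and the 5 most abundant miRNAs. Alternatives were DESeq2 (1.42.0), other scalings and filters, the miRDeep2 table, unmodified reads only, a replicate block and leaving out each library.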

Additional observations from a re-analysis of the deposited data

Results flagged for a closer look

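Of 104 groups of 4 libraries examined, 6 held a value farther from the others than Dixon's 95% limit, and chance gives about 1 in 20. let-7e-5p was at 686 CPM in mutant_1 replicate 2, with the others at 593 to 606 CPM. let-7b-5p was at 1224 CPM in mutant_2 replicate 2, with the others at 902 to 948 CPM. let-7a-5p was at 17000 CPM in LIN28A-OE mutant_1 replicate 2, with the others at 23780 to 24610 CPM. let-7a-2-3p was at 0.422 CPM in LIN28A-OE mutant_2 replicate 2, with the others at 0.110 to 0.117 CPM. TUT7 mRNA was at 14.9 CPM in mutant_2 replicate 4, with the others at 25.9 to 28.01 CPM. The U share was 0.253% in LIN28A-OE mutant_2 replicate 3, with the others at 0.271 to 0.274%.

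The effect of LIN28A-OE differed between the clones, mutant_2 minus mutant_1, for 13 miRNAs. On the log2 scale the difference was −2.72 for let-7a-2-3p, −2.57 for miR-143-3p, −1.98 for miR-125b-1-3p, −1.92 for miR-125b-5p, −1.75 for miR-503-3p and −1.74 for miR-6511a-5p. It was 2.28 for miR-363-3p, 1.07 for miR-147b and 0.94 for miR-200b-3p.

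The mean effect in the mutants differed from that in wild type for 44 miRNAs. The difference was 4.76 for let-7d-3p, 3.72 for let-7f-1-3p, 3.67 for let-7b-3p, 3.53 for let-7d-5p, 3.46 for let-7i-3p and 3.23 for let-7i-5p. It was −2.60 for miR-3620-3p, −2.03 for miR-4485-3p, −2.01 for miR-548u, −1.72 for miR-545-5p, −1.63 for miR-34a-3p and −1.30 for miR-218-5p.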

How the results depend on the processing

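The replicate number did not pair the libraries (8 pairs with correlations of −0.287 to 0.0550). With the replicate block, 5 miRNAs rose in both clones, the let-7 share difference was −0.930 points (exact sign-flip p = 0.0703), and within mutant_2 the U difference of 0.0671 and the A difference of −1.84 points had an exact p = 0.125, the smallest 4 pairs allow. At an adjusted p under 0.05 the calls were 125 in mutant_1, 180 in mutant_2, 235 on the mean, 26 between clones, 85 against wild type, 38 that fell and 30 that rose in both. Scaled by library totals alone they were 31, 38 and, in wild type, 63, with 9 that fell and 4 that rose in both, and with 6 let-7 miRNAs that fell in mutant_1 and 5 in mutant_2. DESeq2 called 82 in mutant_1, 29 between clones, 28 that fell and 17 that rose in both. With no filter 20 differed between clones and 31 fell in both, and with a mean of at least 10 CPM 8 differed. The miRDeep2 table gave 17, 38, 68 and 0, with 9 and 2 in both and 5 let-7 miRNAs that fell in mutant_2. It turned miR-429 in mutant_1 to 0.052 and the clone differences of miR-147b and miR-200b-3p to −1.23 and −0.11. Its column for LIN28A-OE mutant_1 replicate 2 does not track that library's own file (correlation 0.15) but that of LIN28A-OE wild-type replicate 2 (0.942). With that column left out, an alternative chosen after seeing the data, the calls were 77, 104, 167 and 19. The let-7 share difference was then −0.694 points (exact permutation p = 0.0857). The wild-type comparison was not run on that table. Leaving out miR-21-5p, also chosen afterwards, the U difference in mutant_1 was 0.0350 points and the A difference over both clones −0.569 points. With 1 miRNA composition for all libraries, chosen afterwards as well, they were 0.0101 and −1.03 points. With at least 200 reads 2 miRNAs gained U in both.

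Leaving out 1 library gave 34 (without mutant_1 replicate 2) to 67 calls in mutant_1, 52 (without LIN28A-OE mutant_2 replicate 4) to 132 in mutant_2, with 61 without mutant_2 replicate 4, and 116 to 176 on the mean. Between clones there were 8 to 21, 12 to 23 fell and 3 to 13 rose in both, and 77 to 119 were called in wild type. Against wild type there were 27 (without LIN28A-OE wild-type replicate 4 or wild-type replicate 2) to 56. let-7 miRNAs that fell numbered 7 to 10 in mutant_1, 7 to 12 in mutant_2, 11 to 12 on the mean and 18 to 19 in wild type. For U there were 4 to 8 calls on the mean, 0 to 3 in mutant_1, 4 (without LIN28A-OE mutant_2 replicate 2) to 20 in mutant_2 and 0 to 2 in both. For A there were 34 to 44, 2 (without LIN28A-OE mutant_1 replicate 4) to 15, 10 to 26 and 2 to 9. The let-7 share difference was −1.24 to −0.696 points over both clones (exact permutation p = 0.00082 to 0.087). It was −1.43 to −0.338 in mutant_1 (exact p = 0.029 to 0.63) and −1.27 to −0.808 in mutant_2 (exact p = 0.057 to 0.14). The U difference was 0.0383 to 0.0485, with 0.00948 to 0.0294 in mutant_1 and 0.0617 to 0.0754 in mutant_2, and the A difference −1.42 to −1.14, with −1.004 to −0.438 and −2.04 to −1.71. LIN28A, TUT4 and TUT7 mRNA differences were 311 to 329, 11.1 to 14.8 and 9.10 to 11.8 CPM. Where an alternative changed a count, the cause was not tested.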

Other observations

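mRNAs of other enzymes of the let-7 pathway were not tested, and their values in the matched poly(A) libraries are given here. DICER1 mRNA, whose product removes the loop, was at 60.9 to 105 CPM in mutant_1 and 138 to 171 CPM with LIN28A-OE, at 93.5 to 139 CPM in mutant_2 and 183 to 198 CPM with LIN28A-OE, and at 84.6 to 133 CPM in wild type and 260 to 284 CPM with LIN28A-OE. The groups did not overlap in any of the lines. DIS3L2 mRNA, whose product degrades oligouridylated precursors, was at 18.1 to 22.2 CPM against 21.5 to 25.2 CPM in mutant_1 and at 12.1 to 17.1 CPM against 15.5 to 19.8 CPM in mutant_2, and the groups overlapped. TENT2 mRNA, which encodes a poly(A) polymerase that adds A to miRNAs, was at 42.3 to 76.5 CPM against 69.9 to 77.6 CPM in mutant_1 and at 39.9 to 60.2 CPM against 55.5 to 62.2 CPM in mutant_2, and overlapped as well.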
